A study of Mus musculus with 16 samples.

Results

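Perineuronal nets are lattices of extracellular matrix that wrap the soma and proximal dendrites of certain neurons, above all the fast-spiking interneurons that contain parvalbumin, and in the hippocampus also pyramidal neurons of CA2. Long chains of hyaluronan, spun out at the plasma membrane by hyaluronan synthases, form the backbone. Chondroitin sulfate proteoglycans of the lectican family bind the chains through their N-terminal domain, link proteins of the Hapln family lock that bond, and tenascin-R joins the C-terminal ends of neighbouring lecticans. The same molecules also build the looser matrix around synapses and at nodes of Ranvier, so the RNA of these genes in whole tissue is not a count of nets.

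The 10 genes described here were taken from the deposited gene table by name: the lecticans Acan (aggrecan), Bcan (brevican), Ncan (neurocan) and Vcan (versican), the link proteins Hapln1, Hapln2 and Hapln4, tenascin-R (Tnr) and the hyaluronan synthases Has2 and Has3. They are 10 of the 31960 genes in the table, and all 10 had enough counts to pass an expression filter. RNA was sequenced from both hippocampi of 16 mice, 4 High Activity females (libraries 1 to 4), 4 High Activity males (5 to 8), 4 Low Activity females (9 to 12) and 4 Low Activity males (13 to 16), all killed at postnatal day 70. High Activity and Low Activity are inbred lines (H2 and L2) descended from a cross of BALB/cJ and C57BL/6 mice and selected for high or low movement in an open field. Each is a single inbred line, so the replicate mice measure the spread within these lines, and a strain difference is a difference between these lines.

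Library totals ran from 20815456 to 28760896 counts, and levels are given as CPM, the count of a gene relative to the scaled size of its library. Xist and the Y-linked Ddx3y separated the labelled females from the labelled males in all 16 libraries. Gpr151, a gene of the habenula and thalamus, stood at 12.3 and 10.9 CPM in High Activity males 6 and 8, against 2.50 and 0.49 CPM in High Activity males 5 and 7. It was at 0.22 to 0.81 CPM in Low Activity males. The member calls that change when High Activity males 6 and 8 are left out are given both ways. The sum of 8 thalamus and habenula markers was uneven in males of both strains, at 138 to 647 CPM in High Activity and 141 to 398 CPM in Low Activity males. In females it was 138 to 263 and 140 to 148 CPM. Low Activity males were left out only singly. A gene was called when its p-value from the quasi-likelihood test of edgeR, adjusted by Benjamini-Hochberg over all 31960 genes, was under 0.05. A positive log2 difference means a higher level in High Activity mice.

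Some of the net genes lie in close pairs in the genome. On GRCm38, Hapln4 (chr8:70083457-70090862, plus strand) and Ncan (chr8:70093085-70120873, minus strand) lie tail to tail with 2.22 kb between them. Hapln1 (chr13:89539796-89611652, plus strand) and Vcan (chr13:89655312-89742509, minus strand) also converge, 43.7 kb apart. Bcan (chr3:87987531-88000230) and Hapln2 (chr3:88021750-88027583) are both on the minus strand, 21.5 kb apart. Acan, Tnr and Has2 are on chromosomes 7, 1 and 15, and Has3 is on chromosome 8 but far from Hapln4.

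The RefSeq promoter table (GRCm38.p6) held 7 of the 10 members, and Hapln4, Has2 and Has3 were not matched in it. The bases from 200 to 31 before the RefSeq start are shown for the 3 lecticans with a called strain effect, Ncan, Bcan and Vcan, because they belong to 1 gene family and differed in direction or in the sex concerned. The bases just after the RefSeq start were found in full in the annotated transcripts of Ncan but not in those of Bcan and Vcan. The counted Bcan gene starts at chr3:88000230 on the minus strand, so its window does not lie directly before that start. Capitals mark a GC box (GGGCGG or its complement CCGCCC, a motif bound by Sp factors) or a CCAAT box (CCAAT or its complement ATTGG), both searched on both strands.
Ncan, chr8:70120875-70121044, minus strand: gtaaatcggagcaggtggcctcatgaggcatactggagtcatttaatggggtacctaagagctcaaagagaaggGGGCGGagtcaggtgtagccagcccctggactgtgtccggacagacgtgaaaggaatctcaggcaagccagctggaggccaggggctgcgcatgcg
Bcan, chr3:88000387-88000556, minus strand: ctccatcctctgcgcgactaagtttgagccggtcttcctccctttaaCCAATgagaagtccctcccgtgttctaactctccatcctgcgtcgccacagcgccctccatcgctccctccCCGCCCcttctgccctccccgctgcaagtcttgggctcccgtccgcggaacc
Vcan, chr13:89742543-89742712, minus strand: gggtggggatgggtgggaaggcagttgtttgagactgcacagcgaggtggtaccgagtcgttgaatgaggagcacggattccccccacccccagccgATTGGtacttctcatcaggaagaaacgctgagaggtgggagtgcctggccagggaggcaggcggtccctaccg
The Ncan window held 1 GC box, the Bcan window held 1 GC box and 1 CCAAT box, and the Vcan window held 1 CCAAT box. A GC box was present in 26.4% and a CCAAT box in 26.2% of the 32851 promoter windows of the same length. The windows of Ncan, Bcan and Vcan were 58.2%, 62.9% and 61.8% G or C, against a median of 52.9% over all windows.

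Per kilobase of exon, so that genes can be set side by side, Bcan had the highest mean level of the 10 (46.8 CPM per kb over the 16 libraries). Hapln4 followed at 35.0, Ncan at 23.7, Tnr at 12.1, Hapln2 at 8.89, Hapln1 at 5.18, Vcan at 1.09, Has3 at 0.67, Acan at 0.47 and Has2 at 0.098 CPM per kb. The place of Hapln4 in this order depended on the strain. In Low Activity mice Hapln4 and Ncan were at the same level per kb within their spread (Hapln4 25.7 to 28.0 and Ncan 26.2 to 28.0 CPM per kb in females, Hapln4 25.9 to 29.4 and Ncan 25.4 to 28.7 in males). In High Activity mice Hapln4 stood at 39.4 to 47.2 CPM per kb in females and 39.9 to 46.5 in males, close to Bcan (47.8 to 56.1 and 43.8 to 51.0), while Ncan was at 20.7 to 22.3 and 18.2 to 20.5. Tnr and Hapln2 overlapped in Low Activity males only, and Has3 and Acan overlapped in High Activity females and Low Activity males.

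**Figure D1:**
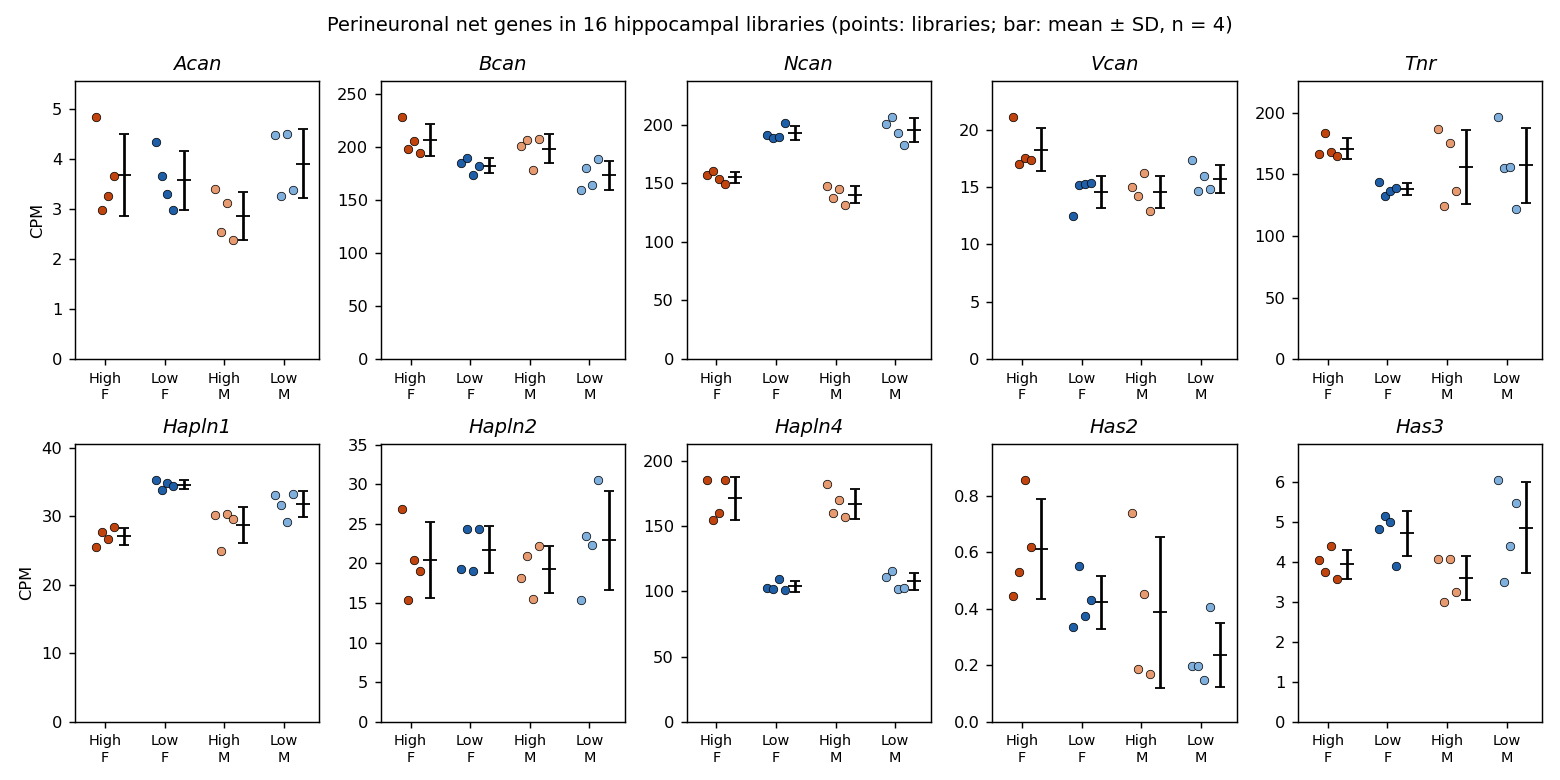
Level of each of the 10 net genes (y axis, CPM from 0; each panel has its own scale) in every library, by group (x axis: High or Low Activity, F female, M male). Points are libraries and bars are mean ± SD (n = 4); the High and Low Activity points of Hapln4 and of Ncan do not overlap in either sex.

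Of the 10 members, 5 were called for any strain effect, the joint test of the strain difference in both sexes (Hapln4, Ncan, Hapln1, Bcan and Vcan), where 10.3% of all genes were called. In females 4 members were called, against 7.26% of all genes: Hapln4 and Vcan higher in High Activity mice (3.7% of all genes were called higher) and Ncan and Hapln1 lower (3.55% called lower). In males 2 were called, against 6.04%: Hapln4 higher (2.78% of all genes) and Ncan lower (3.25%). For the mean of both sexes 4 were called, against 11.4%: Hapln4 and Bcan higher (5.46%) and Ncan and Hapln1 lower (5.89%). The members went both ways, with 6 values above 0 and 4 below in females, 3 above and 7 below in males, and medians of 0.11 and -0.13 on the log2 scale against 0 for all genes in each sex. For any strain effect, 15.2% of all protein-coding genes and 19.8% of those of at least 1 CPM were called. High and Low Activity libraries did not overlap in either sex, in the same direction, for 2 members, Hapln4 and Ncan, where 4.07% of all genes met this condition. In females but not in males they also did not overlap for Bcan, Vcan and Tnr (higher in High Activity) and Hapln1 (lower). This is a looser condition, and the share of all genes that met it was not counted.

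**Figure D2:**
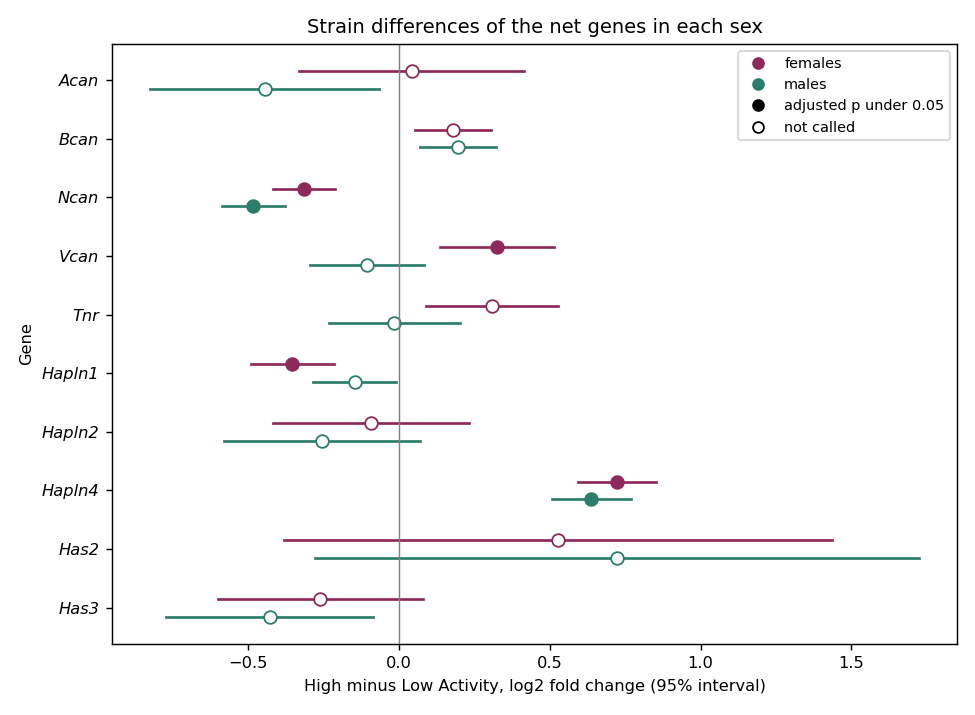
Log2 difference between High and Low Activity mice (x axis) for each net gene (y axis) in females and in males, with 95% intervals from the edgeR fit (n = 4 per group). Filled points are called at an adjusted p under 0.05: Hapln4 and Vcan to the right and Ncan and Hapln1 to the left in females, Hapln4 to the right and Ncan to the left in males.

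Among the link proteins, Hapln4 showed the largest strain difference among the members that were called. Hapln4 (also named Bral2) is a brain link protein that pairs with brevican at perisomatic inhibitory synapses. It was at 185, 155, 160 and 185 CPM in the 4 High Activity females and 103, 102, 110 and 101 CPM in the 4 Low Activity females. In males it was at 182, 160, 170 and 157 CPM in High Activity and 111, 115, 102 and 102 CPM in Low Activity mice. Every High Activity library was above every Low Activity library, with no overlap in either sex. The log2 difference was 0.72 (standard error 0.063, 95% interval 0.59 to 0.85, adjusted p = 4.98e-09, edgeR) in females, a level 1.65 times that of Low Activity mice, and 0.64 (0.063, 0.51 to 0.77, adjusted p = 5.38e-08, edgeR) in males, or 1.56 times.

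Hapln1, the cartilage link protein that many net-bearing neurons express, went the other way. It was at 25.5, 27.8, 26.6 and 28.5 CPM in High Activity females against 35.3, 33.8, 35.0 and 34.4 CPM in Low Activity females, so these groups did not overlap. In males it was at 30.2, 24.9, 30.3 and 29.7 CPM in High Activity and 33.2, 31.7, 29.2 and 33.3 CPM in Low Activity mice, where Low Activity male 15 lay below 3 High Activity males. The log2 difference was -0.35 (standard error 0.067, adjusted p = 7.79e-04, edgeR) in females and -0.15 (0.067, adjusted p = 0.262) in males. The interaction, the female difference minus the male difference, was -0.21 (95% interval -0.40 to -0.014) with an unadjusted p of 0.0366 and an adjusted p of 0.456, so a difference between the sexes was not established.

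Hapln2 (Bral1), a link protein of nodes of Ranvier in myelinated axons, varied more between mice than between strains. It ranged from 15.4 to 26.9 CPM in High Activity females, 15.5 to 22.2 in High Activity males, 19.0 to 24.4 in Low Activity females and 15.4 to 30.5 in Low Activity males. The groups overlapped in both sexes. The log2 differences were -0.09 (95% interval -0.42 to 0.23) in females and -0.26 (-0.58 to 0.07) in males, and neither was called (adjusted p = 0.829 and 0.455, edgeR). Summed expression of 11 mature oligodendrocyte markers also varied between mice, from 7084 to 10371 CPM in High Activity females, 7180 to 9419 in High Activity males, 6983 to 9047 in Low Activity females and 7156 to 11631 in Low Activity males, and its part in the Hapln2 values was not tested.

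With opposite differences in Hapln4 and Hapln1, the makeup of link protein RNA differed between the strains. Hapln4 made up 76.8% ± 1.70 of the summed CPM per kb of the 3 link proteins in High Activity females and 76.6% ± 2.45 in High Activity males, against 63.7% ± 2.50 and 64.7% ± 4.78 in Low Activity females and males (SD, n = 4 each). The share of Hapln1 was 8.15% ± 0.9996 and 8.76% ± 0.708 in High Activity females and males, against 14.2% ± 0.509 and 12.7% ± 0.860 in Low Activity mice. The sum itself was 56.9 ± 5.62 and 55.6 ± 2.48 CPM per kb in High Activity females and males and 41.5 ± 0.807 and 42.5 ± 2.50 in Low Activity females and males. There were 5.57 to 7.26 Hapln4 counts per Hapln1 count in High Activity females and 2.90 to 3.14 in Low Activity females. In males these ranges were 5.28 to 6.44 and 3.07 to 3.64.

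Of the lecticans, Ncan had the clearest strain difference. Neurocan is a soluble brain proteoglycan made by neurons and astrocytes and is most abundant in the young brain. It was at 157, 160, 153 and 149 CPM in High Activity females and 191, 189, 189 and 202 CPM in Low Activity females. In males it was at 147, 137, 145 and 131 CPM in High Activity and 201, 206, 193 and 183 CPM in Low Activity mice. All 8 High Activity libraries were below all 8 Low Activity libraries. The log2 difference was -0.31 (standard error 0.050, 95% interval -0.42 to -0.21, adjusted p = 1.05e-04, edgeR) in females and -0.48 (0.050, -0.59 to -0.38, adjusted p = 1.40e-07, edgeR) in males, and the interaction of 0.17 was not called (unadjusted p = 0.0259, adjusted p = 0.412, edgeR).

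Hapln4 and Ncan, the tail-to-tail neighbours, thus differed in opposite directions in the same libraries. The ratio of Hapln4 to Ncan counts was 1.18, 0.964, 1.045 and 1.24 in the High Activity females and 1.24, 1.17, 1.17 and 1.19 in the High Activity males. It was 0.537, 0.539, 0.580 and 0.5005 in the Low Activity females and 0.551, 0.559, 0.528 and 0.559 in the Low Activity males. The lowest ratio among High Activity mice was above the highest among Low Activity mice in each sex. A ratio within a library does not depend on library size or on its scaling.

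**Figure D3:**
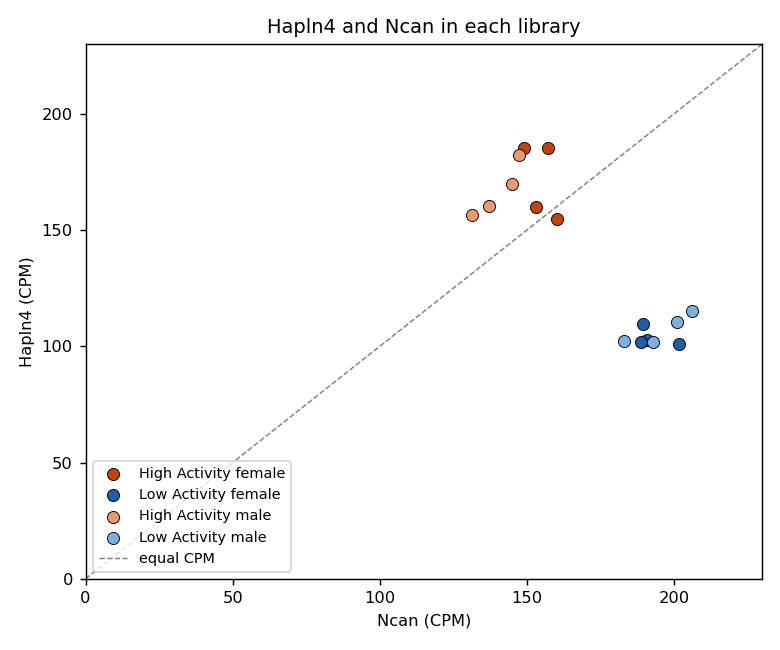
Hapln4 (y axis, CPM) against Ncan (x axis, CPM) in the 16 libraries, coloured by group, with a dashed line at equal CPM. All 8 Low Activity libraries lie below the line, 7 High Activity libraries lie above it, and High Activity female 2 lies just below it.

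Bcan, brevican, is the chief lectican of the adult brain and comes from astrocytes as well as neurons. It was at 228, 198, 205 and 194 CPM in High Activity females and 184, 189, 173 and 182 CPM in Low Activity females, which did not overlap. In males it was at 201, 207, 178 and 207 CPM in High Activity and 159, 180, 164 and 189 CPM in Low Activity mice, which overlapped through High Activity male 7. The log2 differences were nearly equal in size, 0.18 (standard error 0.061) in females and 0.20 (0.061) in males, and neither was called alone (adjusted p = 0.0787 and 0.0593, edgeR). Their mean of 0.19 (standard error 0.043, 95% interval 0.10 to 0.28) was called (adjusted p = 3.83e-03), as was any strain effect (adjusted p = 0.0135). The female difference was called when females were fitted alone (adjusted p = 0.0198, edgeR) without High Activity males 6 and 8 (adjusted p = 0.0396), without library 4, 7 or 13 (adjusted p = 0.0387 to 0.0461) and with the correction for transcript length and GC content in each library (adjusted p = 0.00877). The male difference was called with an expression filter, with RLE or upper-quartile factors, with DESeq2 or with that correction (adjusted p = 0.0284 to 0.0416), and without library 1, 2, 7 or 16 (adjusted p = 0.012 to 0.0372).

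Bcan and Ncan together made up most of the lectican RNA, and their proportion differed between strains. Ncan accounted for 29.1% ± 1.39 of the summed lectican CPM per kb in High Activity females and 28.0% ± 2.14 in High Activity males, against 36.6% ± 1.13 and 38.1% ± 2.49 in Low Activity females and males (SD, n = 4 each). Bcan accounted for 68.5% ± 1.21 and 70.0% ± 2.41 in High Activity and 61.3% ± 1.13 and 59.6% ± 2.73 in Low Activity females and males. The summed lectican level was 74.1 ± 4.20 and 69.6 ± 2.79 CPM per kb in High Activity females and males, and 73.1 ± 1.82 and 71.4 ± 2.90 in Low Activity females and males, differences smaller than the spread between mice.

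Vcan, versican, a large proteoglycan found at nodes of Ranvier and made among others by oligodendrocyte precursors, was called in females only. It was at 21.1, 17.1, 17.6 and 17.4 CPM in High Activity females and 12.5, 15.2, 15.2 and 15.3 CPM in Low Activity females. In males it ranged from 12.9 to 16.2 CPM in High Activity and from 14.7 to 17.3 CPM in Low Activity mice. The log2 difference was 0.33 (standard error 0.092, adjusted p = 0.0265, edgeR) in females and -0.11 (0.093, adjusted p = 0.606) in males, and the interaction was 0.43 (95% interval 0.16 to 0.70, unadjusted p = 0.00275, adjusted p = 0.223). High Activity female 1 and Low Activity female 9 stood apart from their groups, and the female difference was no longer called without either (0.26, adjusted p = 0.116, and 0.26, adjusted p = 0.114). It was 0.13 (adjusted p = 0.496) with the correction for transcript length and GC content. Any strain effect on Vcan (adjusted p = 0.0401) also lost its call without any 1 of libraries 1, 3, 9, 10, 11, 12 and 15 (adjusted p = 0.051 to 0.141) with limma-voom (adjusted p = 0.0609), with no composition factors (adjusted p = 0.0516) and with the length and GC correction (adjusted p = 0.592).

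Tnr, tenascin-R, a trimeric glycoprotein of oligodendrocytes and some neurons, showed a pattern like that of Vcan but was not called. It was at 167, 184, 168 and 165 CPM in High Activity females against 144, 133, 136 and 139 CPM in Low Activity females, which did not overlap. In males it was spread widely, at 187, 125, 176 and 136 CPM in High Activity and 196, 156, 156 and 122 CPM in Low Activity mice. The log2 difference was 0.31 (standard error 0.11, adjusted p = 0.0807, edgeR) in females and -0.01 (0.11, adjusted p = 1) in males. High Activity males 6 and 8, at 125 and 136 CPM, are the libraries with the high Gpr151 level, and without them any strain effect on Tnr was called (adjusted p = 0.00461, against 0.15 with all libraries), as were the female difference (adjusted p = 0.00563, against 0.0807) and the mean of both sexes (0.26, adjusted p = 0.00266, against 0.15, adjusted p = 0.254, with all libraries). Any strain effect was also called without Low Activity male 16 alone (adjusted p = 0.0462, edgeR), and the mean of both sexes without Low Activity male 13 alone (adjusted p = 0.0431). The female difference was called when females were fitted alone, without the wide spread of the males (adjusted p = 5.54e-05, edgeR). It was also called without male library 5, 6, 13 or 16 (adjusted p = 0.0321 to 0.0471). With the correction for transcript length and GC content it was 0.11 (adjusted p = 0.510).

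Vcan and Tnr have the longest transcripts of the 10 members (12.4 and 12.2 kb). Over the 1402 genes of at least 1 CPM with a longest transcript of at least 7 kb, the median log2 difference was 0.15 in females and -0.06 in males, the signs seen in both genes. How far this shift enters the values of Vcan and Tnr was measured only by the length and GC correction above.

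Acan, aggrecan, the lectican most closely tied to perineuronal nets, was scarce in whole hippocampus at 54 to 122 counts per library. It was at 4.84, 2.98, 3.28 and 3.66 CPM in High Activity females and 4.35, 3.67, 3.305 and 2.99 CPM in Low Activity females, which overlapped. In males it was at 3.41, 2.53, 3.12 and 2.39 CPM in High Activity and 4.496, 3.26, 4.51 and 3.39 CPM in Low Activity mice, which overlapped slightly. The log2 differences were 0.04 (95% interval -0.33 to 0.42, adjusted p = 0.987, edgeR) in females and -0.44 (-0.82 to -0.07, adjusted p = 0.193) in males, and the male interval, with 4 mice a group, runs from a small to a large difference.

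The hyaluronan synthases, like Acan, were scarce. Has3 had 64 to 152 counts per library and ranged from 3.58 to 4.39 CPM in High Activity females, 3.005 to 4.08 in High Activity males, 3.89 to 5.14 in Low Activity females and 3.50 to 6.05 in Low Activity males. Its log2 differences of -0.26 (standard error 0.16) in females and -0.43 (0.17) in males were not called (adjusted p = 0.446 and 0.153, edgeR), and their mean of -0.34 (0.12) lay just outside the threshold (adjusted p = 0.0572). That mean was called without library 5, 7, 12 or 14 (adjusted p = 0.016 to 0.0491), and with an expression filter, no composition factors or the length and GC correction (adjusted p = 0.0325 to 0.0465). Without library 14 the male difference (-0.56, adjusted p = 0.0441, edgeR) and any strain effect on Has3 (adjusted p = 0.0378, edgeR) were called as well. Has2, the synthase needed for heart development in the mouse embryo, had only 4 to 23 counts per library (0.148 to 0.856 CPM). Its log2 differences of 0.53 (95% interval -0.38 to 1.44) and 0.72 (-0.28 to 1.72) had intervals that span large differences, and neither was called (adjusted p = 0.580 and 0.501, edgeR).

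Sex itself was compared within each strain. No member was called between males and females in High Activity mice (0.0344% of all genes were called) or in Low Activity mice (0.235%). Before adjustment, 2 members had an edgeR p under 0.05 in High Activity mice, beside 1528 of all 31960 genes. In Low Activity mice it was 0 members, beside 3307 genes. The 2 in High Activity mice were Ncan, at -0.15 for males minus females (edgeR unadjusted p = 0.00798, adjusted p = 0.817), and Vcan, at -0.32 (edgeR unadjusted p = 0.00166, adjusted p = 0.761). For the interaction 0 members and 0% of all genes were called with edgeR, while 4 members (Vcan, Ncan, Hapln1 and Tnr) and 3208 genes had an unadjusted p under 0.05. DESeq2 called 154 genes and again 0 members.

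Genes around the pair on chromosome 8 also differed between the strains. Of the 43 other protein-coding genes whose start lies within 500 kb of that of Hapln4, 21 were called for any strain effect (5 higher and 16 lower in High Activity mice), or 48.8%, and around Ncan 22 of 46 were called. Of all protein-coding genes 15.2% were called. Around the other members the count was 5 of 34 for both Bcan and Hapln2, 3 of 12 for Acan, 3 of 16 for Has3, 1 of 3 for Vcan, 1 of 1 for Hapln1 and 0 of 1 for Tnr, and Has2 had no such gene. These counts include other members, and the windows of paired members overlap. Hapln4 and Ncan were counted around each other, Bcan around Hapln2, and the called genes around Vcan and Hapln1 were each other. With each gene counted once and members left out, 32 of 109 were called, or 29.4%. The called gene whose start is closest to that of Ncan was Rfxank, a subunit of the factor that drives MHC class II genes, at -0.67 in females and -0.54 in males on the log2 scale. The closest to Bcan was Nes (nestin, an intermediate filament of neural progenitors), at -0.17 in females and -0.88 in males. Neighbouring genes on a chromosome of an inbred line are inherited together, so they are not independent observations.

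**Figure D4:**
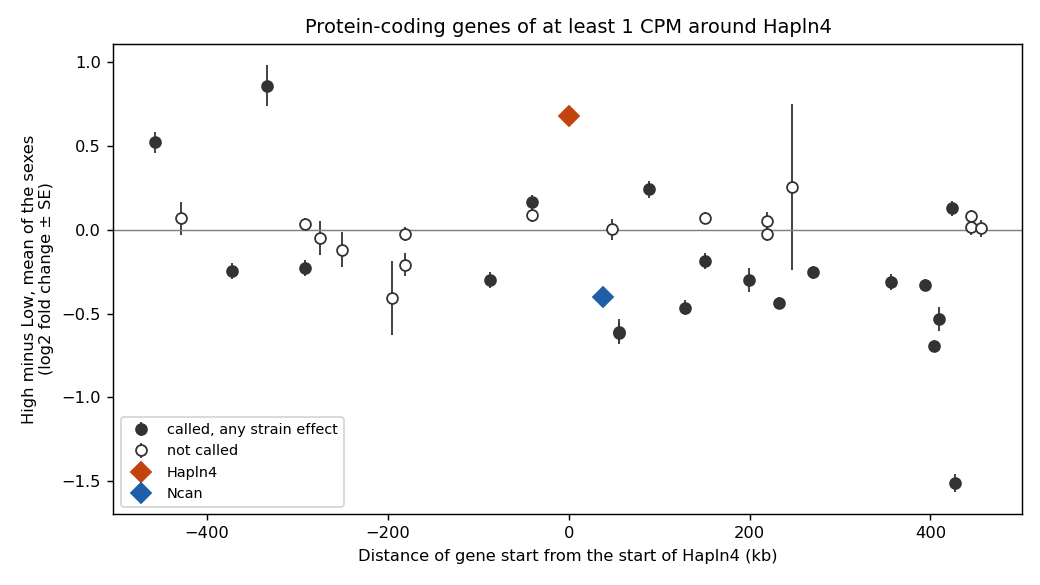
Mean log2 difference of both sexes with its standard error (y axis) for protein-coding genes of at least 1 CPM, by distance of their start from that of Hapln4 (x axis, kb). Filled circles are called for any strain effect; Hapln4 lies at 0.68 and Ncan, 37.4 kb away, at -0.40, among called genes of either sign.

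The genes whose pattern over the 16 libraries was closest to that of the 3 members with the smallest p were also sought. The measure was the root mean square distance between log2 CPM values after each gene was centred on its own mean. Closest to Hapln4 were Fam234b (distance 0.091), Gcn1l1 (0.10) and Ssbp4 (0.10), of which Ssbp4 lies in the same region of chromosome 8, its start 488 kb from that of Ncan. Closest to Ncan were Gmfb (0.077), Slc35e1 (0.080, also on chromosome 8) and Pak6 (0.083). Closest to Hapln1 were Tsr2 (0.064), Lix1l (0.071) and Rbm22 (0.074).

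The wider pathway was read from lists of genes that act with the net, beside the 10.3% of all genes and 19.8% of protein-coding genes of at least 1 CPM called for any strain effect. Among 10 other matrix partners, 5 were called for any strain effect, 4 higher and 1 lower, and the median log2 difference over both sexes was 0.18 against 0.01 for all genes. Hapln3, the remaining link protein and a neighbour of Acan (its start lies 77.5 kb away), was lower in High Activity mice by a log2 difference of -1.08 (standard error 0.23) in females and -0.98 (0.23) in males, at a mean of only 1.71 CPM (adjusted p = 1.85e-04 for any strain effect, edgeR). Tnc, tenascin-C, a glycoprotein of the developing and reactive matrix, was higher (0.93 and 0.55). Ptprz1, the receptor phosphatase whose secreted form is phosphacan and binds tenascin-R, was higher in females (0.45) and at 0.25 in males (adjusted p = 0.0510). Cspg5 (neuroglycan C) was called in males only (0.27), and Nfasc (neurofascin, an adhesion protein of the axon initial segment and node) in females only (0.24); Nfasc is named as the remaining called gene of that list after its values were seen. For neither was the difference between the sexes called.

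No gene of the hyaluronan list was called. It holds 10 genes, among them Has1, Ugdh, Cemip2, the hyaluronidases and the hyaluronan-binding Hmmr, Lyve1 and Stab2. For any strain effect 0 were called with edgeR, beside 10.3% of all genes and 19.8% of protein-coding genes of at least 1 CPM. The median log2 difference of the list over both sexes was -0.07. Has1, Hyal3, Hmmr, Lyve1 and Stab2 were scarce, with means of 0.52 to 0.93 CPM.

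Enzymes that build and sulfate the chondroitin chains were called in both directions, 6 of 22, beside the 19.8% of protein-coding genes of at least 1 CPM. Higher in High Activity mice were B3galt6, which adds the galactose that completes part of the linker to the core protein (0.56 in females and 0.80 in males), Csgalnact1, which starts the chondroitin chain (0.43 and 0.57), and Dsel, a dermatan sulfate epimerase-like protein (0.26 and 0.38). Lower were Ust, a uronyl sulfotransferase (-0.26 and -0.41), and Fam20b, a kinase of the linker xylose (mean of both sexes -0.15). Chst15, a sulfotransferase of the chondroitin chain, was also lower (mean -0.23). The median of the list was -0.03.

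Proteases of the matrix and their inhibitors were called in 1 direction, 5 of 16, all higher in High Activity mice, beside 19.8% of protein-coding genes of at least 1 CPM called in either direction, and the median over the list was 0.27. Adamts4, an aggrecanase that cuts lecticans, was at 0.65 in females and 0.23 in males (called in females). Adamts1, another aggrecanase, was at 0.55 and 0.13, and Mmp2, a gelatinase, at 0.74 and 0.94. The inhibitors Serpine2 (0.36 and 0.44) and Timp2 (0.28 and 0.53) were higher too, so both cutters and inhibitors are in the count.

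Of 9 receptors and bound ligands of the net, 4 were called, 2 in each direction, beside the same 19.8%. Ptprf, a receptor phosphatase of the LAR family that binds chondroitin sulfate, was higher (0.41 in females and 0.28 in males). Rtn4r, the Nogo receptor, was lower (-0.26 and -0.22), as was Nptx2, a neuronal pentraxin that gathers at net-bearing interneurons (-0.51 and -0.48). Otx2, a homeoprotein that nets take up, was higher (mean 0.69, adjusted p = 0.0497 for any strain effect, edgeR). It was at 0.93 in females and 0.45 in males (adjusted p = 0.0480 and 0.450, edgeR). It is made in the choroid plexus, whose 8 markers, Otx2 among them, summed to 1005 to 4512 CPM in High Activity females and 133 to 1697 CPM in Low Activity females. In males these sums were 2308 to 5337 and 734 to 3582 CPM. The part of the choroid plexus in the Otx2 value was not tested.

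**Figure D5:**
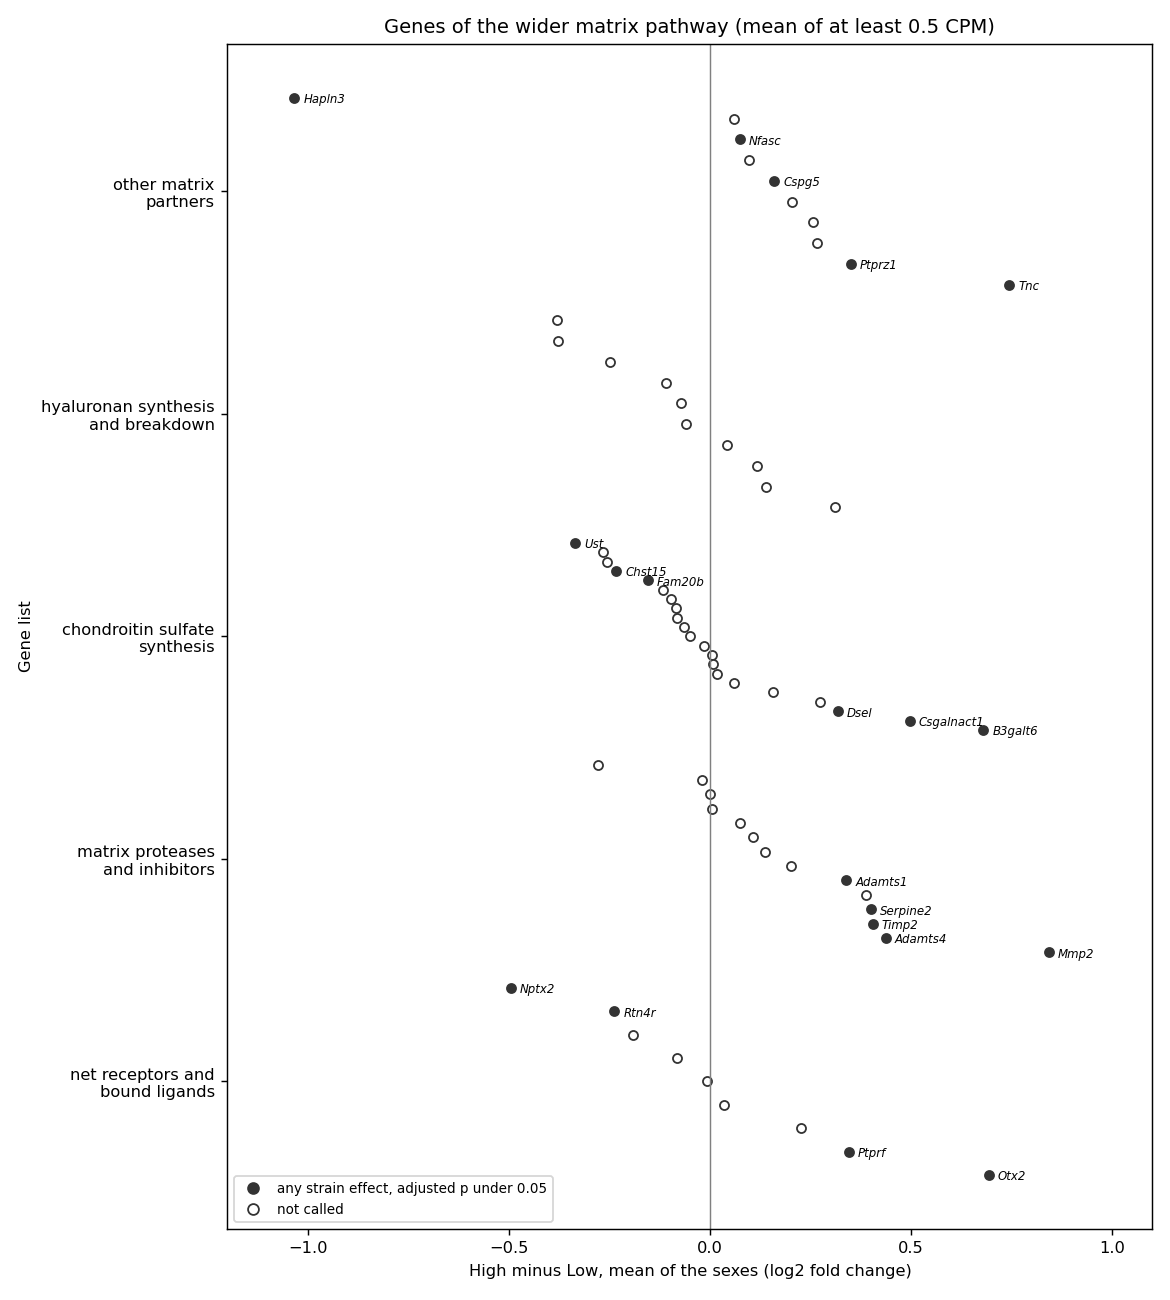
Mean log2 difference of both sexes between High and Low Activity mice (x axis) for the genes of 5 lists of the matrix pathway with a mean of at least 0.5 CPM (y axis: lists, genes ordered by value within each). Filled points with names are called for any strain effect; the called proteases and inhibitors all lie to the right of 0 and no gene of the hyaluronan list is filled.

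Markers of cells that make or carry nets were counted in the same libraries, beside the 10.3% of all genes and 19.8% of protein-coding genes of at least 1 CPM called for any strain effect. Pvalb, parvalbumin itself, was at 41.3 ± 3.34 and 41.0 ± 7.66 CPM in High Activity females and males and at 44.6 ± 1.0 and 38.7 ± 6.47 CPM in Low Activity females and males (SD, n = 4 each), and it was not called. Of 12 parvalbumin interneuron markers 4 were called, 2 in each direction. Tac1 (mean 0.51) and Kcnc2 (mean 0.29), a potassium channel of fast spiking, were higher. Syt2 (mean -0.31), a synaptotagmin of the terminals of these interneurons, and Gad1 (mean -0.15) were lower. Of 7 CA2 markers 2 were called, Amigo2 higher (0.38) and Rgs14 lower (-0.26), a count near that background. In whole tissue, a change in the number of cells of a type and a change in RNA per cell cannot be told apart.

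Some glial markers differed between the strains, again beside a background of 19.8%. Of 9 astrocyte markers 3 were called, all higher in High Activity mice (Aldh1l1 mean 0.34, Slc1a2 0.35 and Gja1 0.23). The uncalled astrocyte markers had means from -0.10 (Aqp4) to 0.23 (Gjb6). The summed level of the 9 markers was 6090 to 6156 CPM in High Activity females against 4841 to 5130 CPM in Low Activity females. In males it was 5145 to 6215 against 4865 to 5000 CPM. Slc1a2 weighs heavily in that sum, at 3665 to 3843 against 2774 to 2915 CPM in females and 2917 to 4019 against 2720 to 2887 CPM in males. Of 9 oligodendrocyte precursor markers 4 were called, all higher (Pdgfra mean 0.17, Olig1 0.25, Sox10 0.20 and Lhfpl3 0.71). The uncalled ones, Gpr17 and Olig2 among them, had means from 0.0006 (Matn4) to 0.26 (Cspg4). The summed level of the 9 markers was 366 to 446 against 319 to 356 CPM in females and 365 to 401 against 307 to 374 CPM in males. Bcan, which oligodendrocyte precursors express, was higher in High Activity mice over both sexes. Vcan, which they also express, was higher in females, a call lost under some alternatives, and at -0.11 in males (not called). Ncan, which astrocytes also make, was lower. Of the other markers, 2 of 11 mature oligodendrocyte genes and 2 of 8 endothelial and fibroblast genes were called, all higher, 2 of 6 microglia genes were called, both lower, and 4 of 9 hippocampal neuron genes were called, 2 in each direction. Of 8 thalamus and habenula genes 1 was called, Gpr151, and of 8 choroid plexus genes 1, Otx2, both higher. For the mean of both sexes 3 of each of these 2 lists were called, all higher, beside 11.4% of all genes. The median log2 differences of that mean were 0.67 for the thalamus and habenula list and 0.85 for the choroid plexus list. Standard errors of the single genes were large, from 0.16 (Rora) to 0.42 (Gpr151). The part of cell makeup in these values was not tested.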

How the data were processed

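RNA of the hippocampi of 16 mice (4 per strain and sex) was selected for polyadenylated transcripts and sequenced as pairs of 150 bases. According to the study's methods the authors trimmed reads with cutadapt, aligned them to mm10 with HISAT2, derived expected counts per gene with RSEM on the Ensembl GRCm38.93 transcriptome and removed genes at 0 in every library. The submitters' processing notes also name DESeq2 1.30.1. The deposited values are expected counts held as whole numbers, not scaled between libraries.

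Symbols, positions and lengths came from GENCODE M21 through the gene identifiers. With edgeR 4.0.16 under R 4.3.3, TMM factors gave CPM, group means and log2 differences, and a quasi-likelihood F-test was fitted to 4 groups over all 31960 genes without a filter. Intervals are at 95% from the same fit, and the biological coefficient of variation was 10.6%. Levels per kb divide CPM by the annotated exon length. Scripts were checked on simulated counts.

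The members and lists were chosen with earlier results of these data known. Named were all 10 members, up to 4 called genes a list by smallest p (5 for the chondroitin and protease lists), 3 genes most like each of 3 members, and the nearest called neighbour. Nfasc and Chst15 were named beyond these limits, as the remaining called genes of their lists. Markers of cell types were named as examples after their values were seen.

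Alternatives were no composition factors, upper-quartile or RLE factors, the filterByExpr filter, limma-voom (limma 3.58.1), DESeq2 1.42.0, each sex alone, an offset for transcript length and GC content (spline with 5 degrees of freedom), and leaving out each library. Leaving out High Activity males 6 and 8 together was added after the data were seen. Whether RSEM counted by strand is not given in the sources used here.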

Additional observations from a re-analysis of the deposited data

Results flagged for a closer look

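In 5 of the 44 groups of 4 libraries examined (the 10 members and the Hapln4 to Ncan ratio in each group), 1 library lay far from the other 3 relative to the range of the group, where chance alone gives about 1 in 20. Hapln1 in High Activity males was at 24.9 CPM in library 6, against 29.7 to 30.3 CPM in the other males. Ncan in Low Activity females was at 202 CPM in library 12, against 189 to 191 CPM. Tnr in High Activity females was at 184 CPM in library 2, against 165 to 168 CPM. Vcan in High Activity females was at 21.1 CPM in library 1, against 17.1 to 17.6 CPM, and in Low Activity females at 12.5 CPM in library 9, against 15.2 to 15.3 CPM. No member had an interaction of strain and sex that passed the adjusted threshold.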

How the results depend on the processing

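No member value that was called changed sign under any alternative. Of 980 values of single members under alternatives, 925 kept their direction and side of the threshold, 3 lost a call, 31 gained 1 and 21 were uncalled values that changed sign. The 3 lost calls were all Vcan in females, without library 1, without library 9 and with the length and GC offset. The gained calls were of Bcan, Tnr and Has3. Any strain effect on Vcan had an adjusted p from 0.0202 to 0.592 over the alternatives. The number of members called ranged from 3 to 6 in females, 2 to 3 in males, 4 to 5 for the mean and 4 to 6 for any strain effect.

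The counts over all genes for the comparisons that involve sex moved more. Genes called for the interaction were 0 with edgeR, 154 with DESeq2, 2 without High Activity males 6 and 8, and 0 to 206 when a single library was left out. Genes called for sex in High Activity mice were 11, and 10 to 28 without a single library. Genes called for sex in Low Activity mice were 75, and 49 without composition factors, 339 with DESeq2, 25 with the length and GC offset, 527 without High Activity males 6 and 8, and 19 to 187 without a single library. The cause of these shifts was not tested. Counts were lowest for Has2 (4 to 23 a library), Acan (54 to 122) and Has3 (64 to 152), and how far depth or the spread between mice widened their intervals was not tested. No paired analysis was possible because every library has its own number.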
